A study of Homo sapiens with 3 samples.

Results

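Acyl-CoA synthetases join fatty acids and other carboxylic acids to coenzyme A, and 4 genes of this family are described here: ACSL1, ACSL6, ACSS3 and AASDH. They were chosen by symbol, with earlier results of these data known, and each value is the sum of the gene's NM_ rows (RefSeq protein-coding transcripts). They are 4 of the 6962 gene symbols with such a row in the deposited table. Total RNA was sequenced from PLC, an established line of liver cancer cells, with 1 library for each group. The groups were cells with HKDC1 knocked down (shHKDC1), cells with RBBP5 knocked down (shRBBP5) and the control labelled NTC, all grown in DMEM with fetal bovine serum. HKDC1 is a hexokinase-domain protein and RBBP5 a core subunit of the complexes that methylate histone H3 at lysine 4, and the stated question was their effect on gene expression. There were no replicates, so no difference between groups was tested and no p-value is given.

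An acyl-CoA synthetase first joins its acid to AMP and then exchanges the AMP for coenzyme A. The resulting acyl-CoA does not cross membranes freely and can be oxidised, elongated or built into lipids. Members of the family differ in the chain length they prefer and in the membrane or compartment where they sit. In liver the long-chain enzymes supply both mitochondrial oxidation and triglyceride synthesis.

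Values are in units, the estimated counts as deposited, and in CPM (the usual depth-scaled count, here with TMM factors, trimmed mean of M values). CPM was not divided by transcript length, so levels are compared between libraries and not between genes. Totals were 115556160 units in shHKDC1, 154533913 in shRBBP5 and 161750310 in NTC. RefSeq rows held under 1% of these units, since assembled loci without a gene name took 99.60%, 99.53% and 99.43% in the same order. Whether further reads of the 4 genes lay in such loci was not tested. Neither knockdown target, HKDC1 or RBBP5, had a row, so the depth of each knockdown was not analysed here. Of 15 hepatocyte markers 2 had NM_ rows, FGB and CYP3A4, and albumin and AFP were among the 13 that had none. FGB, a fibrinogen chain, had 0.60 CPM in shHKDC1, 2.30 in shRBBP5 and 2.41 in NTC. CYP3A4, a drug-metabolising enzyme, had 4 units in shHKDC1 and 0 in both other libraries, so the liver label could be checked on FGB alone. Fibroblast markers summed to 1.58 CPM in shHKDC1, 1.86 in shRBBP5 and 0.953 in NTC, with COL1A2 at 0 throughout. Most of it was PDGFRB, called higher than in NTC in shHKDC1 (2.44-fold) and in shRBBP5 (2.57-fold), while COL3A1 had 6 units in shHKDC1, 26 in shRBBP5 and 42 in NTC. PDGFRB had 1.48 CPM in shHKDC1, 1.56 in shRBBP5 and 0.605 in NTC, so it passed the CPM filter given below only through the knockdown libraries. PDGFRA and DCN had 0 units in shHKDC1 and at most 13 in either other library. Endothelial markers summed to 0.765, 0.163 and 0.137 CPM, with KDR at 0. In shHKDC1 nearly all of that sum was VWF (73 units, against 3 in shRBBP5 and 3 in NTC), while CDH5 had 2, 16 and 9 units and PECAM1 4, 7 and 12 in the same order. Leukocyte markers summed to at most 0.310 CPM, with PTPRC and CD3E at 0. The part of these markers in any result was not tested.

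A gene was measured when its mean over the 3 libraries reached 1 CPM, which held for 967 genes by NM_ rows. Calls needed a 2-fold difference (a log2 ratio of 1 or more, or of −1 or less), and the exact 95% Clopper-Pearson interval of the ratio, in brackets below, had to exclude 0. Those intervals, like the exact Poisson intervals of single levels, take 4 units as 1 sequenced fragment, an assumption drawn from a pile-up of low values at 4. All of them cover counting error only. In a bulk library, fewer cells that express a gene and less RNA per cell cannot be told apart.

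In shHKDC1, 3 of the 4 genes were called lower than in NTC (ACSL1, ACSL6 and AASDH) and ACSS3 was not called. Among all 967 measured genes 24.2% were called lower and 8.48% higher in this comparison. In shRBBP5, 1 of the 4, ACSL1, was called lower than in NTC, where 9.20% of all genes were called lower and 2.59% higher. None of the 4 genes was called higher in either comparison, and both comparisons share the NTC library. FGB, the hepatocyte marker, stood at a log2 ratio of −1.99 in shHKDC1 over NTC and −0.07 in shRBBP5 over NTC, and its part in these calls was not tested. The median log2 ratio of the 4 genes was −1.46 in shHKDC1 over NTC, against −0.41 over all measured genes, and −0.22 in shRBBP5 over NTC, against −0.20. ACSL1 passed the CPM filter through its NTC level, and ACSL6 reached it only just, at a mean of 1.07 CPM, so neither count nor median shows more than these values. The calls of ACSL1 in both comparisons also rest on leaving out its NR_ rows (RefSeq noncoding transcripts), and ended when those were added.

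**Figure D1:**
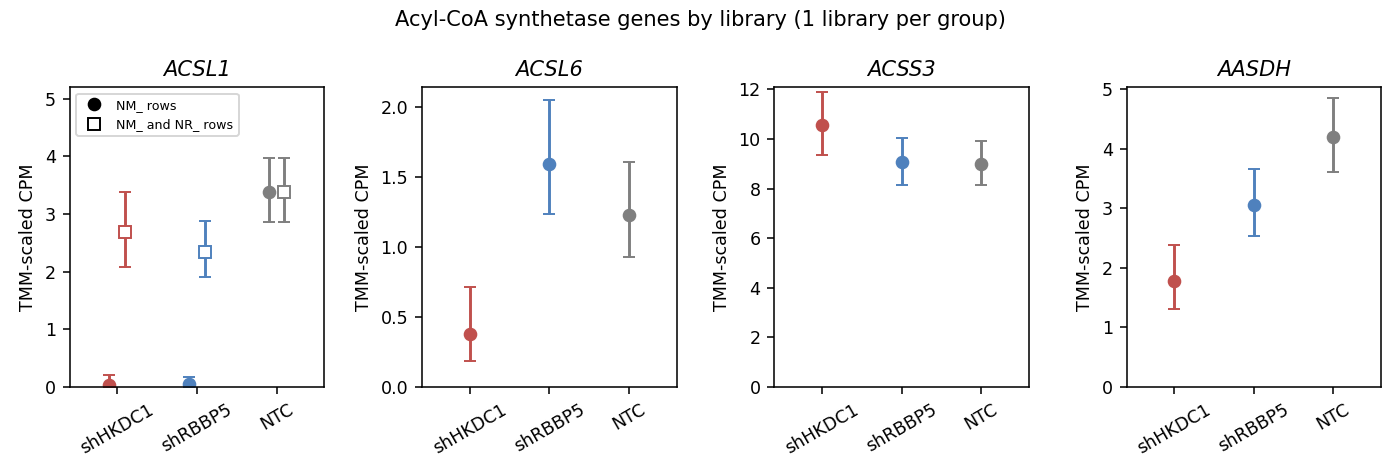
TMM-scaled CPM of each gene (vertical axes, from 0) in shHKDC1, shRBBP5 and NTC, 1 library each, with bars for exact 95% Poisson intervals of counting error. ACSL6 and AASDH are lowest in shHKDC1, ACSS3 is near 9 to 11 CPM in every library, and ACSL1 is near 0 in both knockdowns by NM_ rows (filled circles) but not with NR_ rows added (open squares).

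ACSL1 makes long-chain acyl-CoA at the endoplasmic reticulum and the outer mitochondrial membrane, and is the main such enzyme of liver, heart and fat. By NM_ rows it had 4 units in shHKDC1, 7 in shRBBP5 and 593 in NTC. These are 0.0387 CPM [0.000980 to 0.216], 0.0439 CPM [0.00607 to 0.181] and 3.38 CPM [2.86 to 3.97]. At the assumed 4 units per fragment, these estimates came to 1 fragment in shHKDC1, 2 in shRBBP5 and 148 in NTC. The log2 ratio was −6.28 [−11.76 to −3.95] in shHKDC1 over NTC and −6.17 [−9.13 to −4.20] in shRBBP5 over NTC. Resting on so few fragments, these ratios moved to −5.29 and −5.50 with a pseudocount of 5 units, over 1.5 times smaller as folds, and the size is known only to within the intervals. No ratio between the knockdowns is given, since both were under 3 fragments.

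The NR_ rows of ACSL1 ran the other way. They held 273 units in shHKDC1, 367 in shRBBP5 and 0 in NTC, all of them on 1 row, NR_167698.1. A coding row, NM_001995.5, was at 0 in both knockdowns and held all of the gene in NTC. The few coding units of the knockdowns were on a separate coding row, NM_001381878.1. The noncoding row therefore took 98.6% of the gene's RefSeq units in shHKDC1 [92.2 to 99.96], 98.1% in shRBBP5 [92.5 to 99.7] and 0% in NTC [0 to 2.46]. The other 23 of 26 ACSL1 rows were at 0 in every library.

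With all RefSeq rows summed, ACSL1 had 277 units in shHKDC1, 374 in shRBBP5 and 593 in NTC. On the CPM scale these were 2.68 [2.08 to 3.38], 2.34 [1.90 to 2.88] and 3.38 [2.86 to 3.97]. The intervals of shHKDC1 and NTC overlapped and those of shRBBP5 and NTC only just did. The log2 ratio over NTC was −0.33 [−0.77 to 0.08] in shHKDC1 and −0.53 [−0.91 to −0.14] in shRBBP5, neither of them called. In shHKDC1 over shRBBP5 it was 0.19 [−0.29 to 0.64]. By all RefSeq rows the gene was thus 1.26-fold lower in shHKDC1 and 1.44-fold lower in shRBBP5 than in NTC. On this sum 2 of the 4 genes were called lower in shHKDC1 over NTC and 0 higher, where 23.4% of 1089 measured genes were called lower and 8.17% higher. In shRBBP5 over NTC 0 of the 4 were called, where 8.63% were lower and 2.11% higher. In shHKDC1 over shRBBP5 1 of the 4, ACSL6, was called lower, where 18.1% were lower and 11.0% higher.

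Moves between rows were common in the table. Of 721 measured genes with at least 2 RefSeq rows, the row with most units differed between shHKDC1 and NTC in 294 (40.8%) and between shRBBP5 and NTC in 232 (32.2%). Near-complete moves between coding and noncoding rows, that of ACSL1 among them, were rarer by the cuts given next. Among 189 measured genes with both coding and noncoding rows, the NM_ share was at most 10% in shHKDC1 and at least 90% in NTC for 8 genes, and the reverse held for 0. In shRBBP5 over NTC the counts were 4 and 0. How estimated counts of 1 gene were divided between its rows was not tested, and the intervals do not cover that step.

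**Figure D2:**
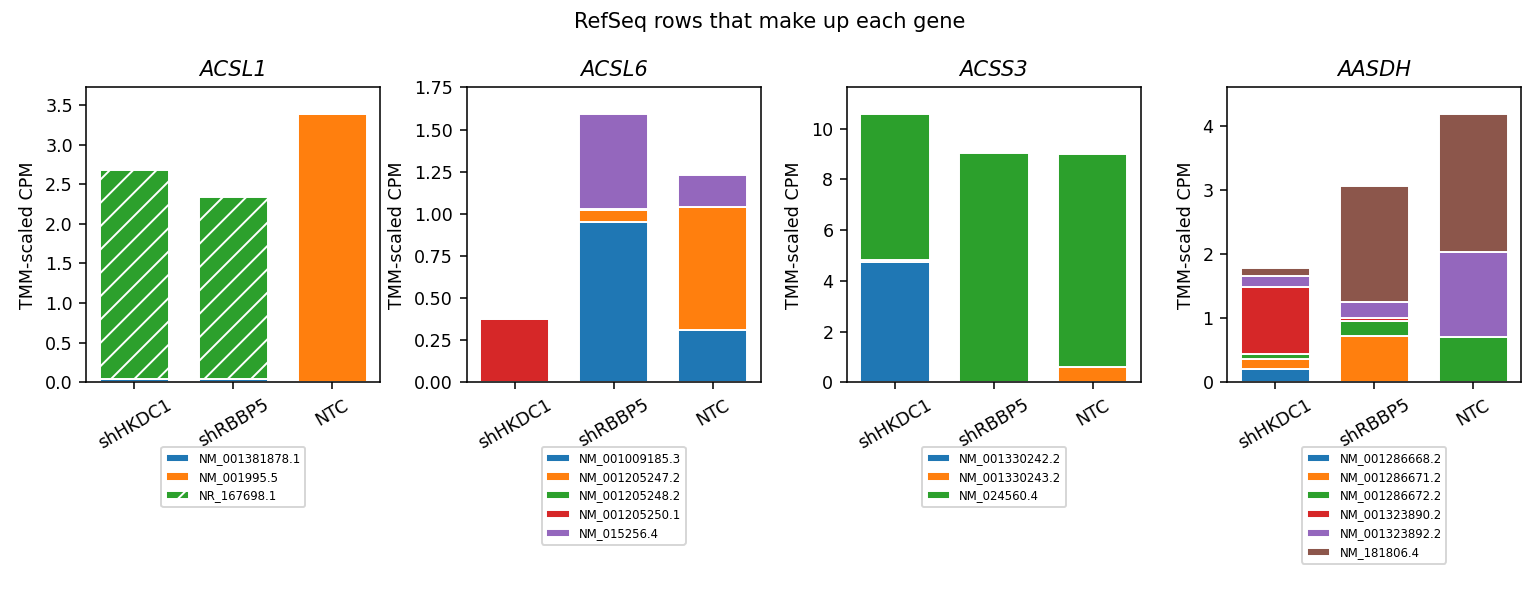
CPM of each gene stacked by the RefSeq row that carries it (vertical axes, from 0; hatched, the noncoding row) for shHKDC1, shRBBP5 and NTC. ACSL1 stands on NR_167698.1 in both knockdowns and on NM_001995.5 in NTC, ACSL6 on a single row in shHKDC1, and ACSS3 has a second row at 4.75 CPM in shHKDC1 alone.

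The promoter window of ACSL1 is printed because RBBP5 belongs to complexes that methylate H3 lysine 4, whose trimethyl form marks active and CpG-rich gene starts. The libraries hold RNA only, so no histone mark was measured, and the part of the promoter in any result was not tested. The window printed is 1 of 5 RefSeq windows of this gene (300 bases around a start) and lies nearest to the GENCODE start paired with NM_001995. The window is chr4:184825919-184826218 on the minus strand of GRCh38.p14, from RefSeq. CpG dinucleotides are in capitals.
ACSL1: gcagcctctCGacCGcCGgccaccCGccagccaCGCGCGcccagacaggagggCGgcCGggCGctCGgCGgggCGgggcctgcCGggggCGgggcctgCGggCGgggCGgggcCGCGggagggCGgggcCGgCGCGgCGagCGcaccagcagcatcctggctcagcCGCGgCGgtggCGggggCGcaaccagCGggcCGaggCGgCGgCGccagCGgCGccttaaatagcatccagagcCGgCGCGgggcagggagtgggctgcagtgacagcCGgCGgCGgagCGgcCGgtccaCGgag
It held 47 CpG dinucleotides, and 2.41% of 35116 RefSeq promoter windows held as many. The letters GGGCGG, on either strand, occurred 5 times, as often or more in 4.18% of windows, and 45.0% of windows held them at all. Each such match contains 1 of the CpG dinucleotides. Matches that overlap an earlier match, as occur in this window, were not counted. The start of the noncoding row is not given in the reference used here.

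ACSL6 is a long-chain enzyme best known from brain, where in mice it is needed to keep docosahexaenoic acid in membranes. It had 39 units in shHKDC1, 254 in shRBBP5 and 216 in NTC, or 0.377 CPM [0.186 to 0.712], 1.59 CPM [1.24 to 2.05] and 1.23 CPM [0.926 to 1.61]. The interval of shHKDC1 lay below both others, and those of shRBBP5 and NTC overlapped. The log2 ratio was −1.69 [−2.81 to −0.68] in shHKDC1 over NTC, a 3.23-fold lower level resting on about 10 fragments. In shRBBP5 over NTC it was 0.37 [−0.16 to 0.93] and not called. Compared directly, shHKDC1 was 4.17-fold lower than shRBBP5 (log2 −2.06 [−3.18 to −1.08]), the single call among the 4 genes, where 19.1% of all genes were called lower and 12.0% higher. Only 6 of the 25 known RefSeq transcripts of ACSL6 had rows, so the value covers part of the gene.

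The ACSL6 units lay on different rows in each library. In shHKDC1 all 39 were on NM_001205250.1, which was at 0 in shRBBP5 and NTC. In shRBBP5 the leading row was NM_001009185.3 with 152 units, followed by NM_015256.4 with 90 and NM_001205247.2 with 11. In NTC the order differed, with 128 units on NM_001205247.2, 54 on NM_001009185.3 and 34 on NM_015256.4. The rows can be sorted into sets, though not each told apart, by a pair of mutually exclusive coding exons of 78 bases each. These are known to encode alternative forms of the fatty acid gate of the enzyme. GENCODE release 29 pairs NM_001009185 and NM_001205250 with exon A and the 3 other rows with units with exon B, matched on accessions without version. NM_001205247 and NM_015256 are paired with the same transcript. Exon A is chr5:131974893-131974970 and exon B chr5:131974758-131974835, both on the minus strand of GRCh38. The exons are shown because they separate these sets of rows, and capitals mark the positions at which the aligned exons differ.
ACSL6 exon A: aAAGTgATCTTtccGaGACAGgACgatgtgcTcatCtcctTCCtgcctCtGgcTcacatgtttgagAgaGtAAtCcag
ACSL6 exon B: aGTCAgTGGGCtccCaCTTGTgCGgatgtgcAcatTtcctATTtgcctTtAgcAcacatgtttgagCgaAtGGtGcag
The exons shared 48 of 78 positions (61.5%). Rows with exon A held 39 of the 39 units in shHKDC1 (100% [69.2 to 100]), 152 of 254 in shRBBP5 (59.8% [46.4 to 71.5]) and 54 of 216 in NTC (25% [15 to 39.7]). The intervals of both knockdown libraries lay above that of NTC. Leading rows differed between libraries for many genes, as given above. Bases of exons A and B were not counted themselves, so these are shares of the authors' row estimates.

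NM_001205250 also begins elsewhere. Its paired GENCODE transcript starts 424 bases upstream of that of NM_001009185 and 473 bases upstream of that of NM_015256. The RefSeq promoter windows nearest to these starts, both on the minus strand of GRCh38.p14, are chr5:132012019-132012318 for NM_001205250 and chr5:132011609-132011908 for NM_001009185, NM_015256 and NM_001205247. They are shown to compare the start of the row found in shHKDC1 with that of the rows found in shRBBP5 and NTC, with CpG dinucleotides in capitals.
ACSL6 upstream start: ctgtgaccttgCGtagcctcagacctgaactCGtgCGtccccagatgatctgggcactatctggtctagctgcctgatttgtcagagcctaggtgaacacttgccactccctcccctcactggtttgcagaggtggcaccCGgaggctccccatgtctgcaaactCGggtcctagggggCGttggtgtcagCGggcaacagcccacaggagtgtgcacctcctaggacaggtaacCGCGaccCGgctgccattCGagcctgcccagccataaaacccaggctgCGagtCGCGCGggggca
ACSL6 downstream start: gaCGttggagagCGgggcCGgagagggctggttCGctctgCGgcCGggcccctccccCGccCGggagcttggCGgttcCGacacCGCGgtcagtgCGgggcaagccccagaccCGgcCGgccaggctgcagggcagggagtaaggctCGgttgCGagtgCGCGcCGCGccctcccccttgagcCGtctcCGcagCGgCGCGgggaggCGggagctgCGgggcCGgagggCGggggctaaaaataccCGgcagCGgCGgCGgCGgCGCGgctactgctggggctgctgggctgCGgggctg
The upstream window held 15 CpG dinucleotides, near the median of 14 over all windows. The downstream window held 38, a number reached by 9.91% of windows. GGGCGG occurred 0 times in the first and 2 times in the second, on either strand.

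AASDH, also called ACSF4, is related to the adenylation enzymes that activate amino acids and is set apart from the other members by that origin. It had 184 units in shHKDC1, 488 in shRBBP5 and 734 in NTC, or 1.78 CPM [1.3 to 2.38], 3.06 CPM [2.54 to 3.65] and 4.19 CPM [3.62 to 4.85]. The interval of shHKDC1 lay below both others, while those of shRBBP5 and NTC overlapped by a narrow margin. In shHKDC1 over NTC the log2 ratio was −1.23 [−1.74 to −0.76], a 2.35-fold lower level, and it was called. In shRBBP5 over NTC it was −0.45 [−0.80 to −0.12], with an interval below 0 but short of a 2-fold difference. Directly, shHKDC1 over shRBBP5 gave −0.78 [−1.30 to −0.28], also short of the call. All 10 RefSeq transcripts of AASDH had rows, and 6 of them held units.

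The row that led in shRBBP5 and NTC, NM_181806.4, had 12 units in shHKDC1, 287 in shRBBP5 and 377 in NTC. In shHKDC1 it took 6.52% of the gene [1.37 to 17.9], against 58.8% in shRBBP5 [49.7 to 67.8] and 51.4% in NTC [43.6 to 58.5]. The leading row of shHKDC1 was NM_001323890.2 with 107 units, which had 6 in shRBBP5 and 0 in NTC. GENCODE pairs both rows, and NM_001323892.2, with 1 transcript of 14 coding exons. NM_001323892.2 had 19 units in shHKDC1, 42 in shRBBP5 and 234 in NTC. NM_001286671.2, paired with a shorter coding transcript of 11 exons, had 16, 116 and 0 units in the same order. The leading row of shHKDC1 thus held few or no units elsewhere. AASDH has 1 RefSeq promoter window, chr4:56387442-56387741 on the minus strand of GRCh38.p14, printed because it is the nearest window to the paired starts of all 6 rows, with CpG dinucleotides in capitals.
AASDH: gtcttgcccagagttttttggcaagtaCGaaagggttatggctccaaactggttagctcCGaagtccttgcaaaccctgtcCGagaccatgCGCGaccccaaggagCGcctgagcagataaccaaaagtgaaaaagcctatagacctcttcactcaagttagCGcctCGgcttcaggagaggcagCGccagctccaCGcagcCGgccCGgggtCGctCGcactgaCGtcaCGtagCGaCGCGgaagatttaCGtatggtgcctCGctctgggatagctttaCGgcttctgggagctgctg
It held 22 CpG dinucleotides, a number reached by 37.7% of windows, and GGGCGG on neither strand.

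ACSS3, on chromosome 12, belongs to the short-chain branch, sits in mitochondria and, in rat liver, activates propionate. It had 1093 units in shHKDC1, 1446 in shRBBP5 and 1575 in NTC, or 10.6 CPM [9.35 to 11.9], 9.06 CPM [8.17 to 10.1] and 8.99 CPM [8.13 to 9.93]. The 3 intervals overlapped. No comparison called it, with log2 ratios of 0.24 [0.0047 to 0.46] in shHKDC1 over NTC, 0.01 [−0.20 to 0.22] in shRBBP5 over NTC and 0.22 [−0.01 to 0.45] in shHKDC1 over shRBBP5. The first turned to −0.042 [−0.27 to 0.18] and the second to −0.057 with total-count scaling, so no direction is given for either. A 2-fold difference in either direction lay outside all 3 intervals. Its 273 fragments in shHKDC1, 362 in shRBBP5 and 394 in NTC gave the narrowest intervals of the 4 genes.

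Its rows differed more than its sum. NM_024560.4 held 595 units in shHKDC1, 1446 in shRBBP5 and 1471 in NTC, or 54.4% [48.5 to 60.6], 100% [99.0 to 100] and 93.4% [90.5 to 95.6] of the gene. A second row, NM_001330242.2, had 491 units in shHKDC1 and 0 in both other libraries. NM_001330243.2 had 7 units in shHKDC1, 0 in shRBBP5 and 104 in NTC. On NM_024560.4 alone the log2 ratio in shHKDC1 over NTC was −0.54 [−0.83 to −0.26], opposite in sign to the ratio of the sum.

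**Figure D3:**
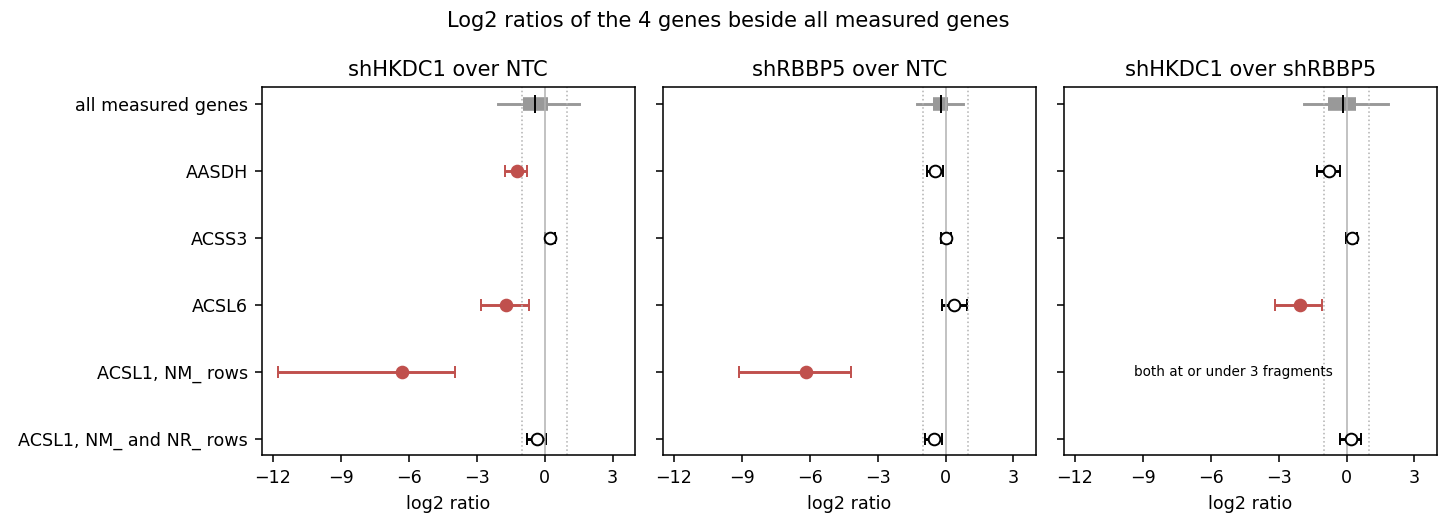
Log2 ratios (horizontal axes) of the 4 genes with exact 95% intervals of counting error for 3 comparisons; filled symbols were called, dotted lines mark 2-fold, and the grey box and line give the quartiles and the outer percentiles (5 and 95) of all 967 measured genes, and the tick their median. ACSL1 stands far to the left by NM_ rows and near the other genes with NR_ rows added, and ACSL6 is called lower in shHKDC1 against both other libraries.

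The family list names 26 human genes, 12 of which had NM_ rows. Apart from the 4 described, these rows were nearly empty. ACSBG2, a bubblegum-type synthetase known from testis, had 7 units in shHKDC1, 20 in shRBBP5 and 26 in NTC. The medium-chain genes ACSM1, ACSM2A, ACSM2B and ACSM4 were at 0 in every library, and ACSM5, ACSM6 and the fatty acid transporter SLC27A6 had at most 4 units in any. The other 14, among them ACSL3, ACSL4, ACSL5, ACSS2 and 5 of the 6 SLC27A genes, had no rows of their own and were not analysed here. The 4 measured genes are a small share of the family.

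Lists of 135 other genes of lipid metabolism had 24 genes with NM_ rows and 8 measured. Whether all transcripts of these 8 genes had rows of their own was not tested, so a value may cover part of a gene. In shHKDC1 over NTC, 2 of the 8 were called higher, 2 lower and 4 neither, with a median log2 ratio of −0.08, against −0.41 over all measured genes, of which 8.48% were called higher and 24.2% lower. In shRBBP5 over NTC, 0 were higher, 1 lower and 7 neither (median −0.37, against −0.20), where 2.59% of all genes were called higher and 9.20% lower. AGPAT4, which adds an acyl group from acyl-CoA to lysophosphatidic acid, had 529 units in shHKDC1, 72 in shRBBP5 and 85 in NTC. It was 10.5-fold higher in shHKDC1 than in NTC (log2 3.39 [2.74 to 4.15]) and not called in shRBBP5 (−0.10 [−1.08 to 0.89]). AGPAT4 passed the CPM filter only through shHKDC1, at 5.12 CPM against 0.451 in shRBBP5 and 0.485 in NTC. Its place among the measured genes and its call thus show no more than these values. The lipoprotein receptor VLDLR had 1890 units in shHKDC1, 307 in shRBBP5 and 545 in NTC and was the other gene called higher in shHKDC1 (2.56 [2.28 to 2.84]).

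ELOVL4, which elongates very long-chain acyl-CoA, had 83 units in shHKDC1, 459 in shRBBP5 and 302 in NTC. It was called lower in shHKDC1 over NTC (log2 −1.10 [−1.87 to −0.38]) and stood at 0.74 [0.30 to 1.17] in shRBBP5, short of the call. BAAT, which moves bile acids from coenzyme A to glycine or taurine, had 86 units in shHKDC1, 642 in shRBBP5 and 655 in NTC. It was 4.47-fold lower in shHKDC1 (−2.16 [−2.85 to −1.49]) and not called in shRBBP5 (0.11). PPARGC1B, a coactivator of lipid oxidation genes, had 364 units in shHKDC1, 486 in shRBBP5 and 1161 in NTC. It was called lower in shRBBP5 (−1.12 [−1.43 to −0.80]) and missed the call in shHKDC1 (−0.91 [−1.27 to −0.57]). In shHKDC1 over shRBBP5, 2 of the 8 were called higher, 2 lower and 4 neither (median 0.44, against −0.17), where 12.0% of all genes were called higher and 19.1% lower. AGPAT4 (3.50 [2.79 to 4.30]) and VLDLR (3.25 [2.89 to 3.61]) were higher, and ELOVL4 (−1.83 [−2.57 to −1.15]) and BAAT (−2.27 [−2.95 to −1.59]) lower, as ACSL6 was.

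The list of propionate, acetate and lysine handling had 2 measured genes of 15 and no call. MMAA, needed to load the cobalamin cofactor of methylmalonyl-CoA mutase, had a log2 ratio of −0.22 [−0.80 to 0.31] in shHKDC1 over NTC and −0.17 [−0.66 to 0.29] in shRBBP5 over NTC. AASS, the first enzyme of lysine breakdown, had 0.06 [−0.49 to 0.59] and −0.66 [−1.22 to −0.12]. LPCAT2, which uses acyl-CoA to remake phosphatidylcholine, had 0.10 [−0.39 to 0.59] and −0.58 [−1.07 to −0.08]. Of 32 fatty acid oxidation genes 3 had NM_ rows and 0 were measured.

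**Figure D4:**
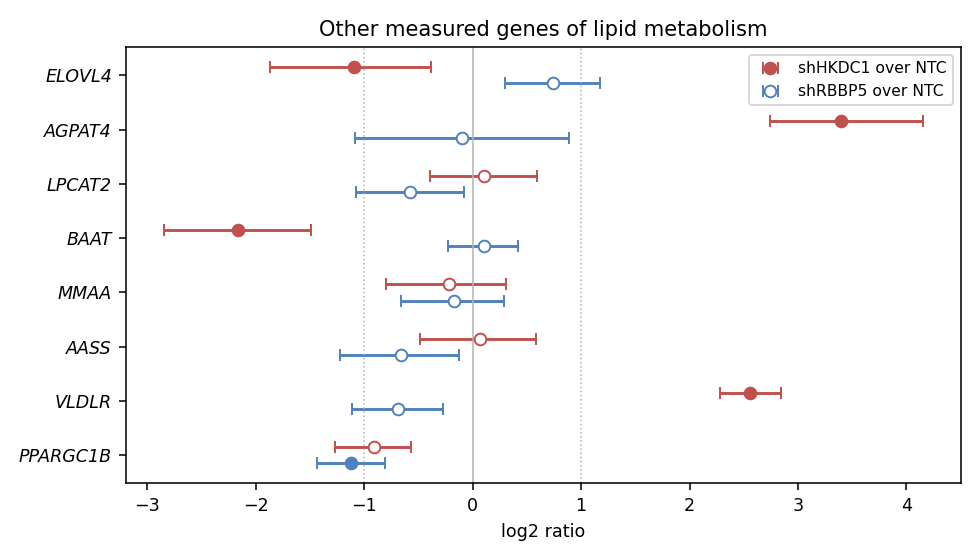
Log2 ratios (horizontal axis) of the 8 other measured lipid genes in shHKDC1 over NTC and shRBBP5 over NTC with exact 95% intervals of counting error; filled symbols were called and dotted lines mark 2-fold. AGPAT4 and VLDLR lie to the right and BAAT and ELOVL4 to the left in shHKDC1, and PPARGC1B is the one called in shRBBP5.

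Patterns over the 3 libraries were compared by the distance between pairs of log2 ratios over NTC, among 895 other measured protein-coding genes with all transcripts on rows of their own. Both ratios of a pair share the NTC library. Nearest to AASDH were ABCA5, a lipid transporter (distance 0.0497), ZNF182, a zinc finger protein (0.0546), and STAU2, which binds double-stranded RNA (0.0623). ABCA5 had 1.55 CPM in shHKDC1, 2.58 in shRBBP5 and 3.52 in NTC. Nearest to ACSL6 were PLA2G6, a phospholipase that frees fatty acids (0.142), CDK5R2, an activator of CDK5 (0.206), and SEMA3G, a semaphorin (0.222). PLA2G6 had 1.78 CPM in shHKDC1, 6.49 in shRBBP5 and 5.44 in NTC. Nearest to ACSS3 were ZNF786 (0.0633), the RNA sensor RIGI (0.0939) and ZNF799 (0.101). Intervals of counting error were wider than these distances. In shHKDC1 over NTC they ran from −1.74 to −0.76 for AASDH, −2.81 to −0.68 for ACSL6 and 0.0047 to 0.46 for ACSS3. The ranking of these neighbours is therefore not resolved. For ACSL1 by NM_ rows the distances rest on 1 fragment in shHKDC1 and 2 in shRBBP5 and move with the pseudocount, and none was computed for its NM_ and NR_ sum. The nearest gene, NEB, which encodes the muscle protein nebulin, lay at a distance of 4.62, with ratios of −3.37 in shHKDC1 and −2.58 in shRBBP5. WDR72 and the ketone-body enzyme BDH1 followed at 5.35 and 5.61.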

How the data were processed

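The authors deposited 1 table of estimated counts (expected counts) for 43704 rows, 16301 assembled loci and 27403 RefSeq transcripts, not scaled for depth or length. Per the submitters' processing notes, HISAT2 2.2.1, StringTie 1.3.4, DESeq2 1.28.1 and hg19 were used, with no roles given, while annotation and strand setting were not given in the sources used here. Columns abbreviated shHD and shRB were taken as shHKDC1 and shRBBP5. RefSeq accessions were matched without version to GRCh38.p14 gene symbols (27357 matched, 46 not), and NM_ rows were summed per gene. Estimated counts were already whole numbers. Libraries were scaled with TMM (edgeR 4.0.16, R 4.3.3; factors 0.894 for shHKDC1, 1.032 for shRBBP5 and 1.083 for NTC, over genes and loci together). Log2 ratios added 0.5 units. With 1 library per group, the spread between replicates could not be estimated from these data, so edgeR's tests were not used. The 4-unit fragment rests on 525 NTC rows at 4 units, against 332 at 3 and 235 at 5. At this depth 3 fragments were 0.116 CPM in shHKDC1, 0.0752 in shRBBP5 and 0.0685 in NTC. Intervals cover counting error only, as PCR reads lacking molecular identifiers are not independent molecules. Genes and lists were chosen with earlier results of these data known. Genes were named as the 4 members, list genes with a mean of at least 1 CPM, and the 3 nearest patterns per member. HKDC1 and RBBP5, marker genes and nearly empty family rows are named as checks, and GSAP, USP44 and ZBTB41 were named after their values were seen. Sequences come from RefSeq and GENCODE tables on GRCh38 (promoter windows matched for 3 of the 4 genes, not ACSS3), and table coordinates on hg19 were not used. Alternatives were other scalings, pseudocounts, filters and ways of summing rows. Python 3.11.15, NumPy 2.4.6, SciPy 1.17.1, pandas 2.3.3 and matplotlib 3.10.9 were used.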

Additional observations from a re-analysis of the deposited data

Results flagged for a closer look

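ACSL1 showed signal in rows outside the summed NM_ rows. Its noncoding NR_ rows stood at 2.64 CPM in shHKDC1 and 2.30 CPM in shRBBP5, above NTC, where they were at 0 units (3 fragments there are 0.0685 CPM, and the exact 95% Poisson upper limit is 0.0842 CPM).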

How the results depend on the processing

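No paired analysis was possible because each group has 1 library, and for the same reason no library could be left out of a group. With a mean of at least 5 CPM only ACSS3 stayed measured, so 0 genes were called in each comparison, where 3, 1 and 1 were called at 1 CPM (shHKDC1 over NTC, shRBBP5 over NTC, shHKDC1 over shRBBP5). With all RefSeq rows summed, chosen after the data were seen, the count in shRBBP5 over NTC was 0 and ACSL1 lost both calls. The ratio of ACSS3 changed sign in shHKDC1 over NTC with total counts (−0.042) and with the single largest row (−0.54), in shRBBP5 over NTC with total counts (−0.057) and upper-quartile factors (−0.022), and in shHKDC1 over shRBBP5 with the single largest row (−0.65). Total counts moved the median of all genes in shHKDC1 over NTC from −0.41 to −0.70, so ACSS3 stayed above it, and split the calls into 59 higher and 343 lower, against 82 and 234. In shHKDC1 over shRBBP5 they gave 86 and 254, against 116 and 185. With the largest row alone ACSL6 was not measured and its calls ended, so 2 genes stayed called in shHKDC1 over NTC, and the 1 call in shHKDC1 over shRBBP5 was AASDH (−3.90) in place of ACSL6. The called ratio of ACSL1 by NM_ rows was −5.29 in shHKDC1 over NTC and −5.50 in shRBBP5 over NTC with a pseudocount of 5. Over all alternatives the ratio of ACSL1 ranged from −9.45 to −0.33 in shHKDC1 over NTC and from −10.08 to −0.53 in shRBBP5 over NTC. The low ends came from a row at 0 in the knockdown, and the high ends, which were not called, from adding the NR_ rows. The called ratio of AASDH in shHKDC1 over NTC ranged from −4.15 to −1.15 over its alternatives, that of ACSL6 from −1.97 to −1.57, and in shHKDC1 over shRBBP5 from −2.27 to −1.93. Counts of calls over all genes differed by over 1.5 times in settings that also changed the number of measured genes, so these counts are not comparable as shares. In the main setting, 82 genes were higher and 234 lower, 25 and 89, and 116 and 185 in the 3 comparisons, of 967 genes. With the largest row alone, 124 of 879 genes were higher in shHKDC1 over NTC and 67 in shRBBP5 over NTC. With no CPM filter the counts were 463 and 427, 128 and 255, and 568 and 358, of 6962 genes. At 5 CPM they were 2 and 50, 0 and 11, and 5 and 33, of 220 genes. DESeq2 size factors, the 20 most abundant rows left out, a pseudocount of 5 and units taken as reads kept every direction and call of the 4 genes. Depth limits ACSL1 by NM_ rows, with 1 fragment in shHKDC1 and 2 in shRBBP5, and ACSL6, with about 10 in shHKDC1.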

Other observations

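As for ACSL1, NM_ rows held at most 10% of a gene's RefSeq units in both knockdowns and at least 90% in NTC in 3 other genes of the 189 with both kinds of row. GSAP, a gamma-secretase activating protein, had 3.43% of its RefSeq units on NM_ rows in shHKDC1, 4.0% in shRBBP5 and 100% in NTC. USP44, a deubiquitinase of mitosis, had 0%, 5.99% and 100%, and the zinc finger gene ZBTB41 0%, 0% and 100%. Summed over all RefSeq rows, ZBTB41 had 318 units in shHKDC1, 415 in shRBBP5 and 806 in NTC. USP44 had 246, 284 and 355 units in the same order, and GSAP 175, 225 and 384. These 3 were named after their values were seen, and all 4 share the same NTC library.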
